A study of Homo sapiens with 8 samples.

Results

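The genes described here encode 9 enzymes of glycolysis and gluconeogenesis: HK1, HK2, PFKL, ALDOA, PKLR, PKM, LDHA, FBP1 and PCK1. They were taken by name from an RNA-seq table of 30755 gene symbols, and all 9 were found in it. The table covers the oesophageal adenocarcinoma line ESO26, an established cell line, grown in RPMI-1640 medium with serum. It holds 2 libraries from cells in which HNF4A had been knocked down with a small interfering RNA (siRNA), called siHNF4A here, and 2 libraries from control cells, although the series text speaks of triplicates. The 2 knockdown libraries are titled siHNF4AB1 and siHNF4AB2, and the meaning of B1 and B2, such as a batch or separate siRNAs, is not given; they are called siHNF4A 1 and siHNF4A 2 here. The labels also do not say what the control cells received, how long the knockdown lasted or whether the libraries came from separate cultures, so the p-values below measure only the spread between these libraries, which may be technical. HNF4A is a nuclear receptor that drives gene expression in liver, intestine and other endodermal tissues. The series also holds chromatin immunoprecipitation and chromosome conformation libraries, which are not analysed here.

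Glycolysis splits glucose into pyruvate in the cytosol, and lactate dehydrogenase can then turn pyruvate into lactate. Hexokinase, phosphofructokinase and pyruvate kinase catalyse its irreversible steps. Gluconeogenesis, which is prominent in liver and kidney, bypasses them with its own enzymes, among them fructose bisphosphatase and phosphoenolpyruvate carboxykinase. Several steps are served by isozymes from different genes, which differ in tissue distribution and in regulation. In liver, HNF4A is known to promote the expression of gluconeogenic genes and of the liver-type pyruvate kinase.

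Of the 9 genes, HK1, PFKL and FBP1 rose after HNF4A knockdown, to between 140.2% and 157% of the control mean, and LDHA fell to 65.5% of it. HK2, ALDOA and PKM did not pass the test. PKLR and PCK1 lay under the minimum mean of 10 normalized counts and were not tested. A normalized count is the authors' read count for a gene after scaling between libraries. Calls were made at an adjusted p under 0.05 in limma, a linear model that shares variance estimates across genes, on log2(normalized count + 1). In this fit 14.1% of the 15577 tested genes were called, 6.02% of all tested as higher and 8.11% as lower, against 4 of the 7 tested enzymes. At a minimum mean of 50, which all 7 enzymes passed, 2381 of 12111 genes and the same 4 enzymes were called. The median log2 fold change of these 7 was 0.017, beside -0.0073 over all tested genes, with 3 called enzymes on the higher and 1 on the lower side. Neither median has a firm sign: rescaling to equal sums gave 0.056 and 0.031, and the fit without siHNF4A 1 gave -0.0025 for the enzymes. In bulk RNA, fewer expressing cells and less RNA per cell cannot be told apart. For 1 gene, the smallest p of an exact permutation test on 2 against 2 libraries is 0.333, so each call rests on the shared variances.

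The targeted gene and the state of the libraries were examined first. HNF4A had 4129 and 3937 normalized counts in the control libraries and 1140 and 932 in the siHNF4A libraries, or 25.7% of the mean in controls. The epithelial markers EPCAM, CDH1, KRT8, KRT18 and KRT19 were present in every library, with at least 4296 normalized counts. CDH1 was higher in both siHNF4A libraries, at a log2 fold change of 0.15 short of the threshold (adjusted p = 0.0937 in limma). KRT18, KRT8 and EPCAM fell by 0.51, 0.43 and 0.29 on the log2 scale after knockdown, and were called with any 1 library left out. KRT19 rose by 0.22, a call lost without control 1 (adjusted p = 0.0521 in limma), siHNF4A 1 (0.152) or siHNF4A 2 (0.0814). Of 14 markers of squamous, fibroblast, leukocyte, endothelial and liver cells 11 were in the table, and together they summed to between 225 and 367 normalized counts per library. Of these 11 only 7 were tested, and among the 7 only the squamous keratin KRT14 was called, a share of 14.3% beside 14.1% over all tested genes. KRT14 was at 0.64 and 2.29 normalized counts in control cells and 12.2 and 25.7 in the siHNF4A libraries. KRT5, the other squamous marker in the table, had 32.6 and 12.1 in control cells and 6.14 and 10.5 in the siHNF4A libraries, a log2 fold change of -1.21 short of the threshold (adjusted p = 0.190 in limma). The call of KRT14 was lost without siHNF4A 1 (adjusted p = 0.0616 in limma) and without siHNF4A 2 (0.210). ALB, the defining gene of hepatocytes, was listed at 0 in both control libraries and at 1.504 and 1.10 in the siHNF4A libraries, and PTPRC, which marks leukocytes, reached at most 2.05. Other markers of the same cell types were higher. The leukocyte marker CD14 had 6.43 and 11.7 normalized counts in control cells and 14.1 and 15.5 in the siHNF4A libraries, and the liver-secreted SERPINA1 had between 65.6 and 84.2 in all 4. The fibroblast collagen COL1A1 had 179 and 108 in control cells and 202 and 212 in the siHNF4A libraries, a log2 fold change of 0.57 short of the threshold in limma (adjusted p = 0.128; unadjusted p = 0.0303). The other fibroblast markers did not follow it, with mean normalized counts of 4.11 in control and 3.31 in siHNF4A cells for COL1A2 and of 12.8 and 13.7 for PDGFRB, whose groups both overlapped. The low values of the table place the siHNF4A libraries at 1.36 and 1.21 times the relative depth of control 1 and control 2 at 1.10 times. The table lists 5479 and 5640 genes at 0 in the control libraries and 4260 and 4362 in the siHNF4A libraries. Control 2 had the most genes at 0, although its relative depth was above that of control 1. The part of depth, of the genes at 0, of keratin changes or of these other markers in the results below was not tested.

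**Figure D1:**
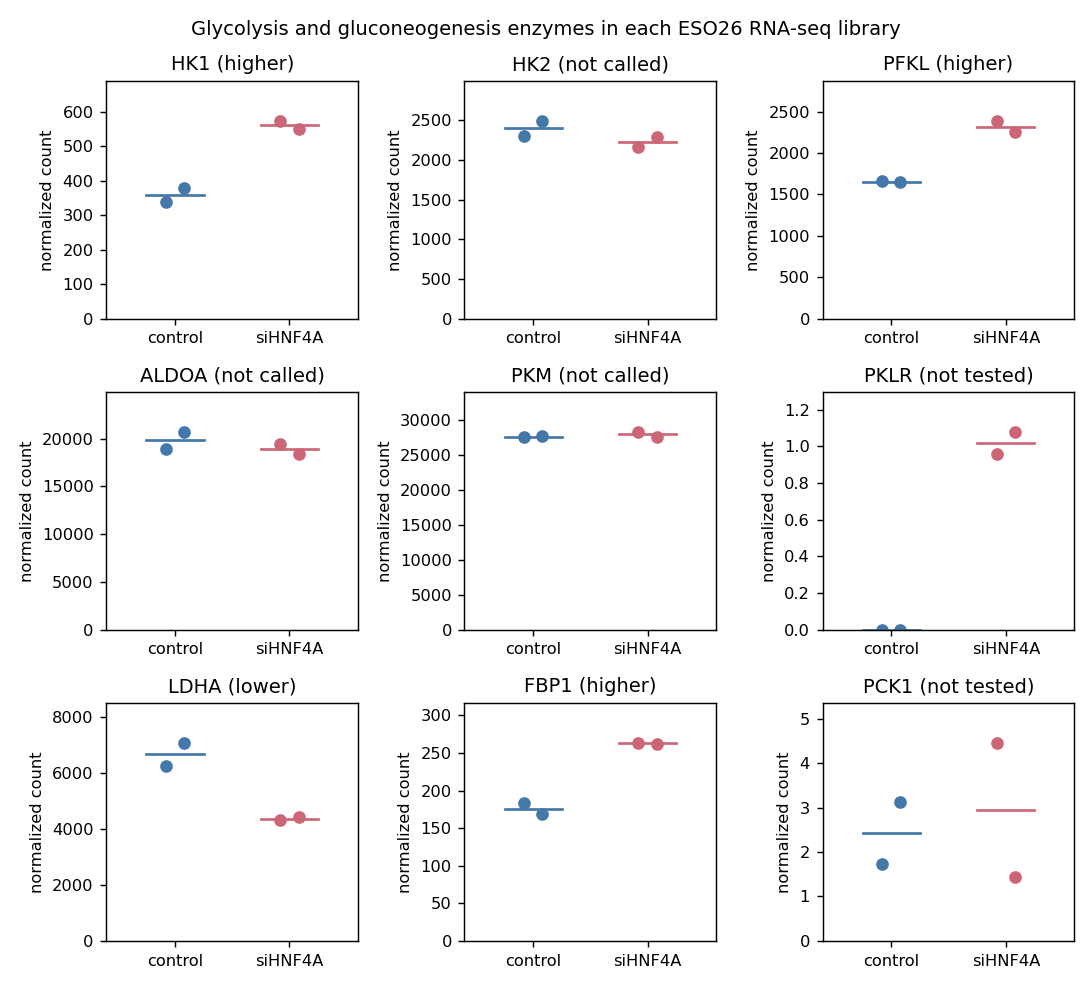
Normalized counts of the 9 enzymes in each library, with 2 control and 2 siHNF4A libraries as points and the group means as lines. Every vertical axis starts at 0 and has its own scale. HK1, PFKL and FBP1 lie higher and LDHA lower in both siHNF4A libraries, while PKLR and PCK1 stay under 5 normalized counts.

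Hexokinases trap glucose in the cell by phosphorylating it. HK1, the form found in most tissues, had 339 and 378 normalized counts in the control libraries and 575 and 551 in the siHNF4A libraries. Both siHNF4A libraries lay above both control libraries. The log2 fold change was 0.65 ± 0.11 (standard error; adjusted p = 0.0054 in limma). HK2, the hexokinase of muscle and fat that many tumours express strongly, had 2306 and 2495 normalized counts in control cells and 2166 and 2293 in the siHNF4A libraries. These groups did not overlap either, as was the case for 5 of the 7 tested enzymes and for 57.0% of all tested genes. The gap was small against the spread, at a log2 fold change of -0.11 (95% confidence interval -0.27 to 0.056; adjusted p = 0.378 in limma). It ranged from -0.16 without control 1 to -0.050 without control 2.

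PFKL is the liver-type subunit of phosphofructokinase, which commits sugar phosphates to glycolysis. It had 1663 and 1648 normalized counts in the control libraries and 2392 and 2249 in the siHNF4A libraries. The control libraries differed from each other by much less than from the siHNF4A libraries. The log2 fold change was 0.49 ± 0.071 (standard error; adjusted p = 0.0022 in limma). FBP1, the bisphosphatase that runs the opposite reaction in gluconeogenesis, had 183 and 168 normalized counts in control cells and 263 and 262 in the siHNF4A libraries. It therefore rose together with PFKL, by 0.58 ± 0.14 on the log2 scale (standard error; adjusted p = 0.0265 in limma). FBP1 was the least firm of the 4 calls, since its adjusted p in limma was 0.0715 without control 2, 0.120 without siHNF4A 1 and 0.118 without siHNF4A 2.

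ALDOA, the aldolase of muscle and of most growing cells, cleaves the doubly phosphorylated sugar into trioses. It had 18920 and 20720 normalized counts in control cells and 19408 and 18433 in the siHNF4A libraries. The groups overlapped, and the log2 fold change of -0.066 had a 95% confidence interval from -0.19 to 0.062. It was -0.13 without control 1 and -0.00045 without control 2. PKM, the pyruvate kinase of most tissues and tumours, had 27462 and 27647 normalized counts in control cells and 28270 and 27508 in the siHNF4A libraries. The groups overlapped here as well, at a log2 fold change of 0.017 and an interval from -0.083 to 0.12. The adjusted p in limma was 0.495 for ALDOA and 0.840 for PKM. The table has 1 row per gene, so the splice forms of PKM were not compared.

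PKLR encodes the pyruvate kinase of liver and red cells, and its liver form is a textbook HNF4A target. It was listed at 0 in both control libraries and at 0.96 and 1.08 in the siHNF4A libraries. PCK1, the cytosolic phosphoenolpyruvate carboxykinase, which supplies gluconeogenesis in liver and kidney, had 1.72 and 3.13 normalized counts in control cells and 4.45 and 1.45 in the siHNF4A libraries. These values are near the lowest that the table holds above 0, and no fold change is given for either gene. Over the whole table, each control library had more genes at 0 than either siHNF4A library. PKLR overlaps HCN3 in the RefSeq annotation, so reads of the 2 genes may not be separable where they overlap.

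LDHA encodes the main subunit of the lactate dehydrogenase of muscle and of many tumours, which reduces pyruvate to lactate. It had 6257 and 7078 normalized counts in the control libraries and 4319 and 4414 in the siHNF4A libraries. The fall was larger than the gap between the control libraries. The log2 fold change was -0.61 ± 0.069 (standard error; adjusted p = 6.62e-04 in limma), the smallest among the enzymes. Its 2 pseudogene rows in the table, taken by name, summed to a mean of 2.33 normalized counts in control cells and 3.95 in the siHNF4A libraries.

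The 250 bases before the start of PFKL and of LDHA are shown, as the called enzymes with the smallest adjusted p in each direction. The sequences are from RefSeq on GRCh38.p14, forward strand, with every ACGTG on either strand in capitals; ACGTG is the core that hypoxia-inducible factors bind, and it is contained in the E-box CACGTG, bound by MYC and related factors. The PFKL window lies at chr21:44299803-44300052 and the LDHA window at chr11:18394313-18394562.
PFKL: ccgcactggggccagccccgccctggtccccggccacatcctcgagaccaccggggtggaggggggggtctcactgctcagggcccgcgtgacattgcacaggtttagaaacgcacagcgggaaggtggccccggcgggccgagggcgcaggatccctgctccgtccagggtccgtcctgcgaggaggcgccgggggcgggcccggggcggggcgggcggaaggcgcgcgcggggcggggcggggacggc
LDHA: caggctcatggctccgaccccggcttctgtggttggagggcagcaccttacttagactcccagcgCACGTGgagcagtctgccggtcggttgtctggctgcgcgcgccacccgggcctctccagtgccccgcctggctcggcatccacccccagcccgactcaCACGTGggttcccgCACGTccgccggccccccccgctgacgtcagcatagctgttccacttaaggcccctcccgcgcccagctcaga
This LDHA window held ACGTG at 3 places, while a second LDHA window, before a start further downstream, held none. E-boxes at 2 of these places begin 185 and 87 bases before the start, and the last ACGTG match begins 73 bases before it. The PFKL window held none, and its GC content was 78.0% against 69.6% for LDHA. Of the 19 windows before the starts of the enzymes 7 held an ACGTG and 4 an E-box, among them a window of HK2, which was not called, with 2 E-boxes. Of 35116 RefSeq windows of this length 18.5% held an ACGTG and 6.34% an E-box. The HNF4 motif CAAAGTCCA, searched on both strands, was in 0.325% of all windows and in 0 of the 19 windows. A motif this rare would seldom appear in 19 windows, so its absence there carries no information. These windows belong to 8 of the 9 enzymes, without PCK1. A match describes these letters only, and binding at these sites was not analysed here.

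**Figure D2:**
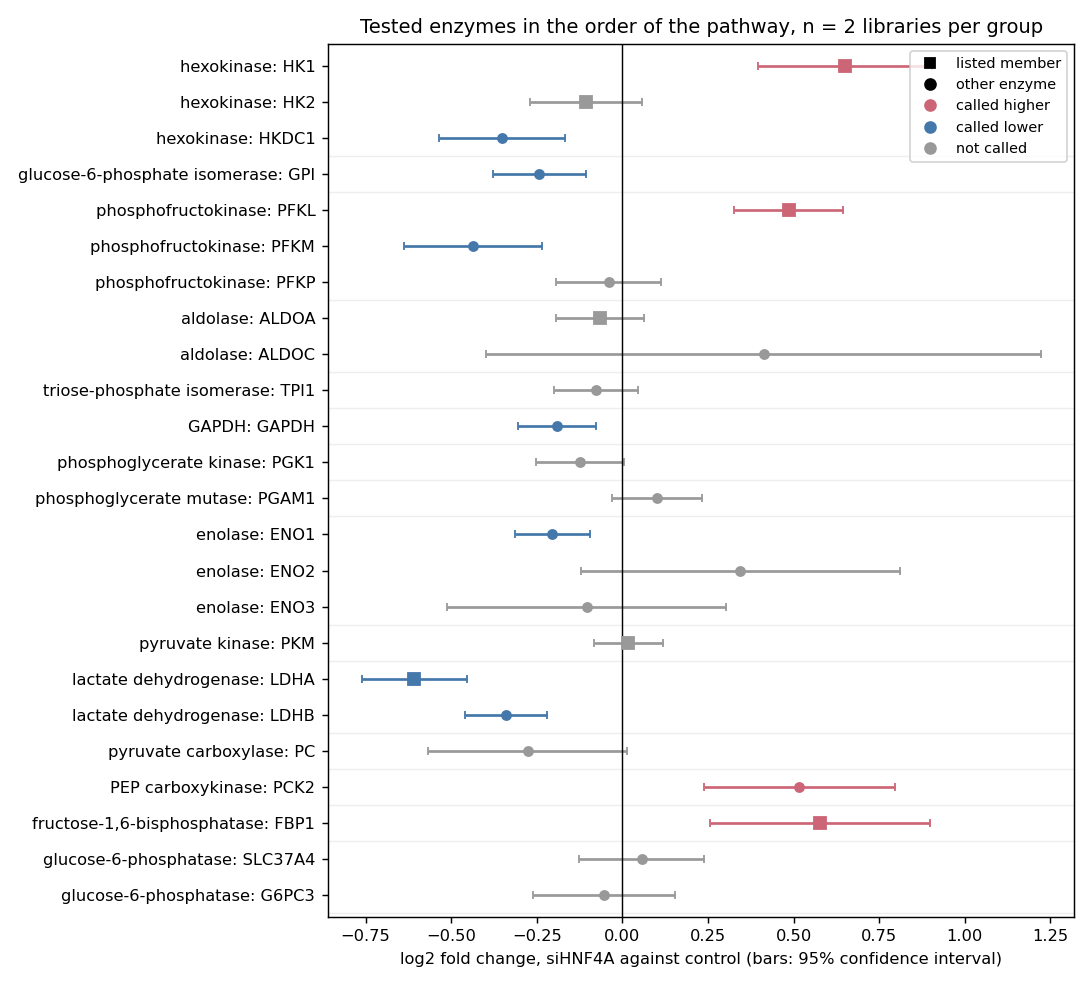
Log2 fold change of siHNF4A against control for the tested enzymes in pathway order, with 95% confidence intervals from limma (n = 2 libraries per group). Squares are the listed enzymes and circles the other enzymes, red called higher, blue called lower and grey not called. HK1, PFKL, FBP1 and PCK2 stand to the right of 0, and LDHA, LDHB, PFKM, HKDC1, ENO1, GPI and GAPDH to the left.

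The other enzymes of glycolysis were then read in the same fit. Of 17 further genes 15 were in the table and 13 were tested, of which 6 fell and 0 rose, beside 8.11% called lower and 6.02% called higher over all tested genes. At a minimum mean of 50, 6 of 12 were called lower, beside 1387 of 12111 over all genes. The log2 fold change was negative for 10 of the 13, beside 7945 of all 15577, and its median was -0.12. With 1 library left out, this median ranged from -0.11 without siHNF4A 2 to -0.21 without siHNF4A 1. Without control 2, without siHNF4A 1 and without siHNF4A 2 only 2, 1 and 3 of the 6 were called, and with all genes above 0 tested, 1.

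Isozymes of 3 steps were among the called genes. HKDC1, a hexokinase-like gene of the gut and liver, had 3206 and 3562 normalized counts in control cells and 2479 and 2828 in the siHNF4A libraries, and fell by 0.35 on the log2 scale (adjusted p = 0.0204 in limma). PFKM, the muscle-type phosphofructokinase, fell by 0.44, from 1128 and 1024 to 780 and 807 normalized counts (adjusted p = 0.0115). The platelet-type PFKP had 2043 and 2000 normalized counts in control cells and 1993 and 1940 in the siHNF4A libraries and was not called. LDHB, the heart-type lactate dehydrogenase subunit, fell by 0.34, from 8035 and 8273 to 6513 and 6371 (adjusted p = 0.0035 in limma). LDHA and LDHB therefore fell together, whereas HK1 rose while HKDC1 fell and PFKL rose while PFKM fell. LDHB was called with any 1 library left out, PFKM was lost without siHNF4A 1 (adjusted p = 0.0633 in limma), and HKDC1 was lost without control 2 (0.0513) and without siHNF4A 1 (0.140).

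Genes of 3 reversible steps also fell. GPI, which converts glucose phosphate to fructose phosphate, fell by 0.24 on the log2 scale, the enolase ENO1 by 0.20, and GAPDH, often used as a reference gene, by 0.19. GAPDH had 59265 and 64713 normalized counts in control cells and 55241 and 53301 in the siHNF4A libraries, with an adjusted p of 0.0357 in limma. The groups of GAPDH did not overlap, yet the libraries of the control differed by more than the nearest libraries of the 2 groups. ENO1, GPI and GAPDH were called without control 1 and were each lost when any of the other 3 libraries was left out, with adjusted p in limma between 0.0889 and 0.247. GAPDH was no longer called after rescaling to equal sums (adjusted p = 0.0524 in limma), whereas quantile normalization moved its log2 fold change from -0.19 to -0.33 (adjusted p = 0.0011). GPI was no longer called after quantile normalization (adjusted p = 0.0521 in limma). TPI1, PGK1, PGAM1, PFKP, ENO2, ENO3 and ALDOC were not called, with log2 fold changes from -0.12 for PGK1 to 0.41 for ALDOC. The 22 glycolytic genes in the table together made up 1.06% and 1.11% of all normalized counts in control cells and 1.03% and 0.999% in the siHNF4A libraries.

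Of the 7 other genes of gluconeogenesis all were in the table and 4 were tested. PCK2, the mitochondrial carboxykinase, had 256 and 246 normalized counts in control cells and 356 and 363 in the siHNF4A libraries. It rose by 0.52 on the log2 scale (adjusted p = 0.0230 in limma) and was the 1 gene called of the 4, too few to read against the 14.1% called over all tested genes. PC, the pyruvate carboxylase that opens the pathway, had 762 and 624 normalized counts in control cells and 624 and 518 in the siHNF4A libraries, short of the threshold in limma (adjusted p = 0.194). The glucose phosphatase G6PC3 and the transporter SLC37A4 were not called either, at -0.054 and 0.056 on the log2 scale. G6PC, the liver glucose phosphatase that releases free glucose, was listed at 0 in both control libraries and at 1.79 and 3.04 in the siHNF4A libraries. Its relative G6PC2 and the FBP1 paralogue FBP2 were also under the minimum. FBP1 and PCK2 were thus the gluconeogenic enzymes that rose, and PCK1 and G6PC stayed near 0 in all 4 libraries, as did the pyruvate kinase PKLR. The call of PCK2 was lost without control 2 (adjusted p = 0.0527 in limma), without siHNF4A 1 (0.0961) and without siHNF4A 2 (0.117).

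**Figure D3:**
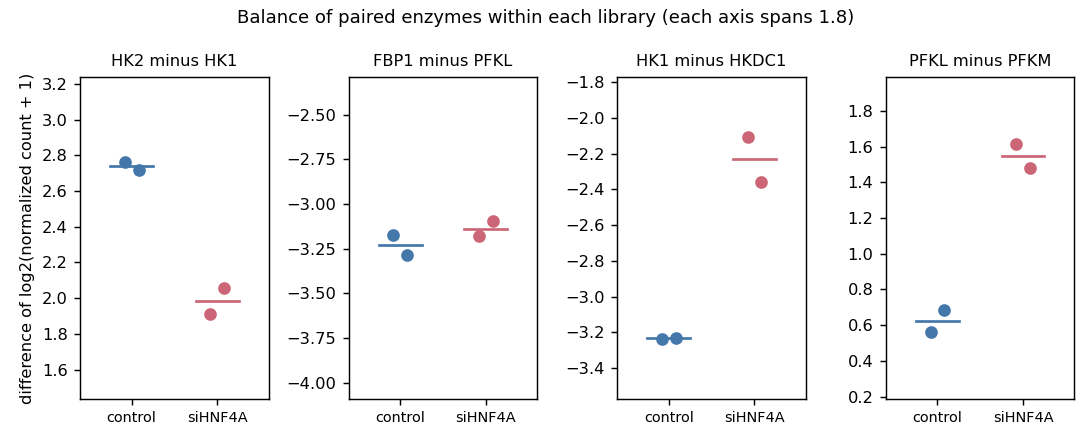
Difference of log2(normalized count + 1) between paired enzymes within each library, with points for the 2 control and 2 siHNF4A libraries and lines for the group means. Each vertical axis spans the same length. HK2 minus HK1 is lower and HK1 minus HKDC1 and PFKL minus PFKM are higher in both siHNF4A libraries, whereas FBP1 minus PFKL overlaps between the groups.

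The balance between paired enzymes was read within each library, where a scaling by 1 factor per library cancels, apart from the pseudocount; quantile normalization, which is not of this kind, moved FBP1 minus PFKL from 0.090 to 0.022. Since longer transcripts give more reads, the differences between genes are not ratios of transcripts, and their change between groups is the quantity compared. HK2 exceeded HK1 by 2.76 and 2.72 on the log2 scale in the control libraries and by 1.91 and 2.05 in the siHNF4A libraries. The balance thus shifted by -0.76 towards HK1, with an exact two-sided permutation p of 0.333, the smallest that 2 libraries against 2 can give. FBP1 minus PFKL was -3.17 and -3.28 in the control and -3.18 and -3.10 in the siHNF4A libraries, a shift of 0.090 within the spread (exact permutation p = 0.667). With all 4 libraries this balance overlapped between the groups. Without control 1 the shift was 0.15 and without siHNF4A 1 it was 0.13, and in both cases the groups no longer overlapped. Without control 2 and without siHNF4A 2 the shift was 0.035 and 0.050, and the groups still overlapped. The balances of PKLR with PKM and of PCK1 with PKLR had also been planned, and are not read because PKLR was listed at 0 in the control.

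A further 5 pairs were chosen after the values were seen and are given as a description. HK1 minus HKDC1 moved from -3.24 and -3.23 in the control to -2.11 and -2.36, a shift of 1.002 on the log2 scale. PFKL minus PFKM moved from 0.56 and 0.69 to 1.62 and 1.48, a shift of 0.92, and FBP1 minus PFKM shifted by 1.01. PFKL minus PFKP shifted by 0.53. LDHA minus LDHB moved least, from -0.36 and -0.22 to -0.59 and -0.53, a shift of -0.27. As plain sums of normalized counts, HK1, HK2 and HKDC1 together had 5851 and 6435 in the control and 5219 and 5671 in the siHNF4A libraries. The sum of PFKL, PFKM and PFKP was 4833 and 4672 in the control and 5165 and 4995 in the siHNF4A libraries, and that of LDHA and LDHB 14292 and 15351 against 10832 and 10785. The lactate dehydrogenase sum was therefore lower in both siHNF4A libraries, the phosphofructokinase sum slightly higher, and each hexokinase sum in the siHNF4A group lay under both control sums.

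**Figure D4:**
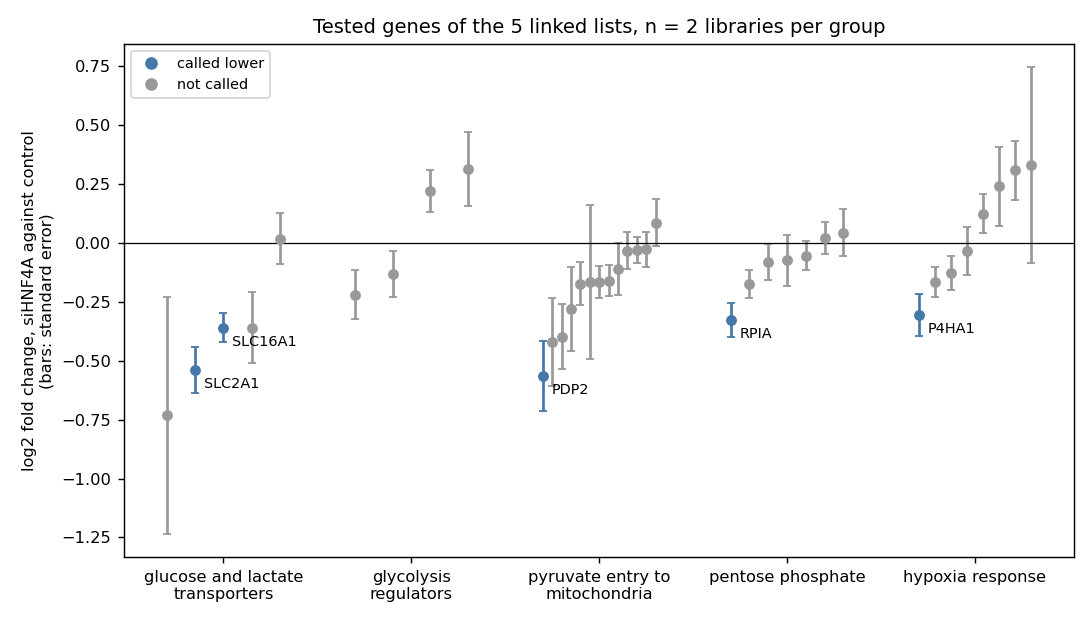
Log2 fold change of siHNF4A against control for the tested genes of 5 lists linked to glycolysis, with standard errors from limma (n = 2 libraries per group). Blue points are called lower and grey points not called. SLC2A1, SLC16A1, PDP2, RPIA and P4HA1 are the called genes, and all of them lie below 0.

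Genes that feed glycolysis or use its products were read from 5 lists of 44 genes in all, of which 37 were tested, 5 fell and 0 rose. These 5 are 13.5% of the tested linked genes, close to the 14.1% called over all tested genes, of which 8.11% were called lower. The median log2 fold change over the 37 was -0.13. Without control 2 there were also 5 calls, but 1 of them, DDIT4, was higher and 3 were among the 5 named here. Among glucose and lactate transporters 2 of 5 tested genes fell. SLC2A1, the main glucose transporter GLUT1 of many tumour cells, had 3350 and 4263 normalized counts in control cells and 2584 and 2616 in the siHNF4A libraries, a log2 fold change of -0.54 (adjusted p = 0.0070 in limma). SLC16A1, a lactate transporter, fell by 0.36, from 3586 and 3567 to 2809 and 2761 normalized counts (adjusted p = 0.0049 in limma). These 2 transporters and both lactate dehydrogenase genes were therefore lower in both siHNF4A libraries. SLC16A3, another lactate transporter, had a log2 fold change of -0.36 and was not called. The glucose transporter SLC2A2 of liver was listed at 0 in all 4 libraries.

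In each of the other lists at most 1 gene was called, and the called shares of 0%, 7.69%, 14.3% and 12.5%, in the order of description, were below or close to the 14.1% over all tested genes. Of 4 tested regulators of glycolysis, among them the PFKFB2, PFKFB3 and PFKFB4 enzymes that set the level of the phosphofructokinase activator, 0 were called by limma, while 1 (PFKFB2, log2 fold change 0.22) had an unadjusted p under 0.05. Of 13 genes for the entry of pyruvate into mitochondria 1 fell, the phosphatase PDP2, which activates pyruvate dehydrogenase, by 0.57 on the log2 scale. In this list 5 of the 13 had an unadjusted p under 0.05, beside 4504 of all 15577, and the median log2 fold change was -0.17. The value was negative for 12 of the 13, beside 51.0% of all tested genes, but for 9 of the 13 after rescaling to equal sums and after quantile normalization, and for 10 without control 1, without control 2 and without siHNF4A 1. The call of PDP2 was lost without control 2 (adjusted p = 0.0521 in limma) and without siHNF4A 2 (0.195). Of 7 genes of the pentose phosphate pathway 1 fell, RPIA, by 0.33, a call lost without siHNF4A 2 (adjusted p = 0.105 in limma), and of 8 tested genes of the response to hypoxia 1 fell, P4HA1, by 0.31. P4HA1 was no longer called after rescaling to equal sums (adjusted p = 0.0674 in limma), after quantile normalization (0.0765) and without control 2 (0.180), siHNF4A 1 (0.163) or siHNF4A 2 (0.150). The 8 tested hypoxia genes had 4 positive and 4 negative log2 fold changes, with a median of 0.046 that became -0.012 without control 1. VEGFA, NDRG1 and EGLN3 had values of -0.13, -0.16 and -0.034, and ADM, ANKRD37, KDM3A and DDIT4 values of 0.24, 0.33, 0.12 and 0.31, and none of these 7 was called.

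**Figure D5:**
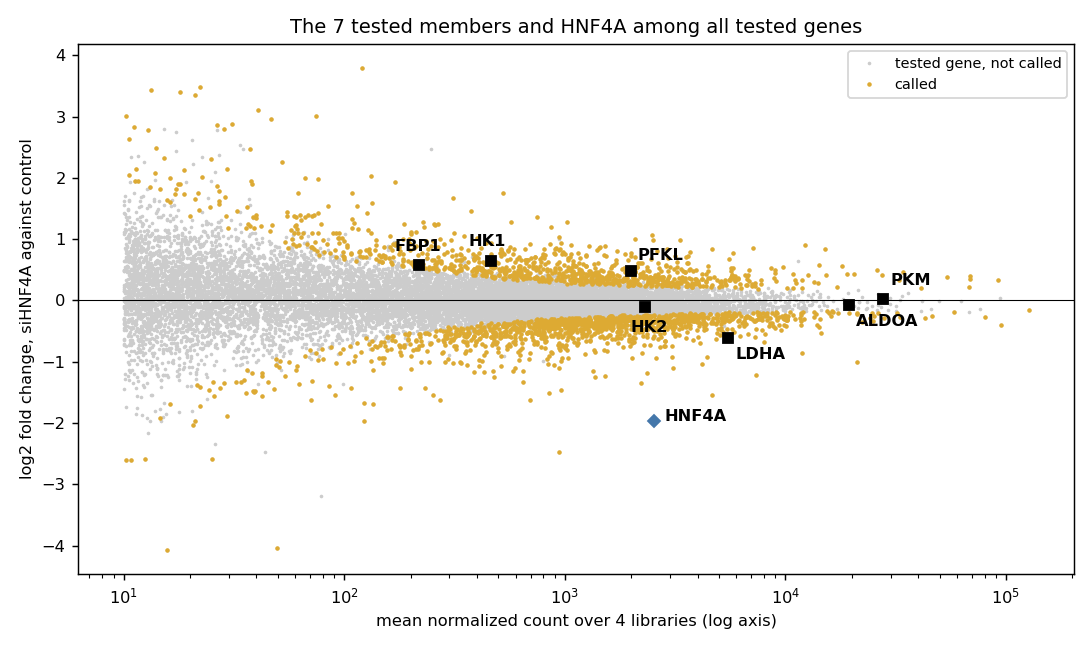
Log2 fold change of siHNF4A against control for each tested gene (vertical axis) against its mean normalized count over the 4 libraries (log axis). Grey points are not called, yellow points are called, black squares are the 7 tested enzymes and the blue diamond is HNF4A. LDHA, HK1, PFKL and FBP1 lie among the called genes and HK2, ALDOA and PKM among the genes that were not called.

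Genes with a profile over the 4 libraries most like that of LDHA or PFKL were sought among the 10911 others with a mean of at least 100, by the Euclidean distance of log2 values centred on the control mean. For LDHA these were PRR11 at a distance of 0.027, HPDL at 0.037 and DHX57 at 0.048. PRR11 had 1153 and 1336 normalized counts in control cells and 808 and 828 in the siHNF4A libraries, so that its control 2 also lay above control 1. For PFKL these were RXRB at 0.013, LONP2 at 0.031 and RABL6 at 0.034. RXRB had 718 and 713 normalized counts in control cells and 1033 and 981 in the siHNF4A libraries. All 6 genes were called in the direction of the enzyme they resemble, which follows from their choice by likeness and is no result.

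The calls depended on the way the variance was modelled. Without the trend of variance with expression limma called 0 of the 7 enzymes and 0 of all tested genes, although the same 4 enzymes and 3524 genes had an unadjusted p under 0.05. HK1, PFKL and LDHA were called in each of the 4 fits that left out 1 library. Rescaling to equal sums changed the split of calls over all genes from 938 higher and 1264 lower to 1136 higher and 1009 lower, and the same 4 enzymes were called in the same directions.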

How the data were processed

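RNA-seq values are normalized counts per gene, a signal the authors deposited after scaling between libraries by a method not given in the sources used here. Total RNA was purified on columns, per the labels' protocols. The submitters' processing notes name Bowtie, Bowtie2, Trim Galore, Picard, MACS2 and the build hg19 for the series as a whole. The aligner's role, the counting program, the annotation and the use of strand are not given in the sources used here. Values are fractional, and between 54.8% and 66.4% of low values (genes above 0 in 1 library) lay on whole multiples of the apparent step divided by 2, within 2% of it, so whole reads were not recovered, no count model was fitted and the absolute depth is unknown. Normalized counts summed to between 17912507 and 18613685 per library.

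Genes with a mean of at least 10 were tested with limma 3.58.1 in R 4.3.3 (lmFit, eBayes with trend) on log2(normalized count + 1), which understates changes of low values, with Benjamini-Hochberg adjustment over all 15577. The fit was also run on simulated data in which the variance was a smooth function of expression, so that run could not test the variance trend. The enzymes and lists were chosen with earlier results of these data known. Named genes are HNF4A, the 9 enzymes, at most 6 called genes per list by smallest p and the 3 nearest profiles of 2 enzymes; others are examples chosen after their values were seen. Replicate numbers were not taken to pair libraries. Peak lists were not used here, as no annotation of their build was at hand. Alternatives were other pseudocounts, filters, scalings and variance models, a replicate block and leaving out each library.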

Additional observations from a re-analysis of the deposited data

How the results depend on the processing

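Without the variance trend limma called 0 genes (3524 at an unadjusted p under 0.05), 0 of the 9 enzymes (4), 0 of the other glycolysis genes (4), 0 of the other gluconeogenesis genes (1) and 0 of the linked genes (7), and the log2 fold change of HNF4A, -1.97, was no longer past the threshold (adjusted p = 0.0919 in limma). With no filter, so that each gene above 0 in any library was tested, there were 726 calls over all genes, 3 enzymes (all but FBP1), 1 other glycolysis gene, 0 other gluconeogenesis genes and 1 linked gene; this setting tested 30247 genes, and the cause was not tested further. Leaving out each library in turn gave between 1013 and 2449 calls over all genes, the 2 lowest being 1101 without siHNF4A 1 and 1013 without siHNF4A 2. The ranges were 3 to 4 for the enzymes, 1 to 6 for other glycolysis, 0 to 1 for other gluconeogenesis (0 without siHNF4A 1 and without siHNF4A 2; without control 2 the call was PC, lower, not PCK2) and 2 to 6 for the linked genes (2 without siHNF4A 2; of the 5 without control 2, 1 was higher and 3 were among those reported). In such fits the lone library of a group is assumed to vary like the others. PKM, not called in any fit, went from 0.017 to -0.0025 without siHNF4A 1 and reached 0.037 without siHNF4A 2. The other pseudocounts, the filter at 50, the 3 scalings, the block and the robust fit, chosen after the data were seen, left 4 enzymes called. The replicate block gave 2428 calls over all genes and 4 enzymes. Replicate 1 minus replicate 2 in control and in siHNF4A correlated at -0.019 over 15577 genes, so the numbers were not taken as pairs. The absolute depth, and so the counting error of PKLR and PCK1, is unknown.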
